A study of Mus musculus with 11 samples.

Results

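Slc2a2, Slc2a1, G6pc2, Mlxipl, Trpm5 and Slc30a8 are 6 genes with which pancreatic beta cells sense glucose. They were chosen by gene name, with no measured value in the rule, and every row carrying 1 of these symbols was taken from the tables of both histone marks and of ISL1 binding. They are 6 of the 31659 genes named in the series, and they hold 10 of 31479 H3K27ac regions, 3 of 20086 H3K27me3 regions and 6 of 22332 ISL1 promoter windows. No region of these genes passed the test between Isl1CKO and Control cells, and the values of each region are given library by library.

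A beta cell takes up glucose through transporters of the SLC2A family, phosphorylates it and burns it. The resulting ATP closes a potassium channel, the membrane depolarises and insulin granules are released. Slc2a2 encodes GLUT2, the main glucose transporter of rodent beta cells, and Slc2a1 encodes GLUT1, the transporter of most other cells. G6pc2 encodes the islet glucose-6-phosphatase, which removes that phosphate again. Mlxipl encodes ChREBP, the transcription factor that switches on genes when glucose metabolites rise. Trpm5 encodes a calcium-activated cation channel that adds to the depolarisation, and Slc30a8 encodes ZnT8, which loads zinc into insulin granules. H3K27ac marks active promoters and enhancers, H3K27me3 is the mark of Polycomb repression, and ISL1 is a LIM-homeodomain factor needed for islet cell maturation.

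The cells were tdTomato-positive endocrine cells sorted from mouse pancreas, and the assay was CUT&Tag, which uses an antibody to bring a transposase to its target. Isl1CKO mice were Isl1loxP/loxP;Neurod1-cre and Control mice were Isl1loxP/+;Neurod1-cre, so Control cells also carried the Cre transgene and 1 floxed Isl1 allele. Both groups carried the Ai14 tdTomato reporter on a C57BL/6 background and were littermates of both sexes. Recombination follows Neurod1-cre, which marks all endocrine cell types of the islet and not beta cells alone. H3K27ac and H3K27me3 were measured at postnatal day 9 (P9) in 2 Isl1CKO and 2 Control libraries per mark, each from a separate pool of 3 to 4 pancreases and about 20000 cells. ISL1 binding was measured in Control cells only, at embryonic stage E14.5 (2 libraries in 1 pooled column) and at P9 (1 library).

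Counts in H3K27ac regions totalled 681047 and 1441926 for Isl1CKO and 1307049 and 1815511 for Control, and those in H3K27me3 regions 2276887 and 2260039 for Isl1CKO and 1202276 and 1750706 for Control. For H3K27ac, Control replicate 2 was unlike the other libraries. Its correlations with them were 0.388 to 0.435, against 0.715 to 0.751 among the other 3. For H3K27me3 the Isl1CKO libraries correlated at 0.680 with each other, and less than with Control replicate 1 (0.793 and 0.786). Their correlations with Control replicate 2 were 0.652 and 0.637, and the Control libraries correlated at 0.757 with each other. Isl1 itself had 7 H3K27ac regions with log2 fold changes of -2.05 to 0.47, none called, and as histone signal these do not check the deletion. Of 12 endocrine markers 9 had an H3K27ac region (summed signal 522 and 548 CPM in Isl1CKO, 632 and 447 in Control), while Ins2, Gcg and Sst had none. Acinar markers were listed for 2 of 10 genes (88.2 and 134 CPM in Isl1CKO, 182 and 114 in Control) and ductal markers for 5 of 8 (170 and 115 CPM in Isl1CKO, 149 and 137 in Control). Endothelial markers were listed for 2 of 7, mesenchymal for 1 of 7, immune for 2 of 7 and neuronal or glial for 3 of 6. The part of other cell types in the results below was not tested.

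The promoter sequences printed here lie upstream of RefSeq gene starts, and show how different the promoters of these genes are in base composition. They are the 250 bases before the RefSeq start on the GRCm38.p6 build, 5′ to 3′ on the coding strand, and their coordinates are not those of the marks, which are on GRCm39. Capitals mark every TAAT (or ATTA, the same motif on the other strand), the core bound by homeodomain factors, and every CACGTG, which is also the core of the carbohydrate response element that ChREBP binds. The set is Slc2a2 at chr3:28697653-28697902 (plus strand), Slc2a1 at chr4:119108495-119108744 (plus strand), G6pc2 at chr2:69210823-69211072 (plus strand), and Mlxipl at its first start, chr5:135089640-135089889 (plus strand), and its second start, chr5:135106641-135106890 (plus strand).
Slc2a2: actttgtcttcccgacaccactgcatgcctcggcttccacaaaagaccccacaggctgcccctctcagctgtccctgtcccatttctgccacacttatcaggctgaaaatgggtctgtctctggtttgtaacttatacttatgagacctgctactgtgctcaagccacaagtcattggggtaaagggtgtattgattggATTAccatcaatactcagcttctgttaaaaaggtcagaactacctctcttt
Slc2a1: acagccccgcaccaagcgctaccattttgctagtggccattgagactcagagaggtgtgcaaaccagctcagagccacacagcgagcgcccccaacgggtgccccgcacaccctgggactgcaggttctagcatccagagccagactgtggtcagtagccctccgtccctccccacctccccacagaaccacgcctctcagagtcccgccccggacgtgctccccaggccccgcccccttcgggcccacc
G6pc2: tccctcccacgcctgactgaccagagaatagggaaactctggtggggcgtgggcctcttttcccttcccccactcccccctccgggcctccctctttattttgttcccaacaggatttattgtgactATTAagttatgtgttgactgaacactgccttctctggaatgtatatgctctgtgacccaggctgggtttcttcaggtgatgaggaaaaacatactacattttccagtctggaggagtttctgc
Mlxipl first start: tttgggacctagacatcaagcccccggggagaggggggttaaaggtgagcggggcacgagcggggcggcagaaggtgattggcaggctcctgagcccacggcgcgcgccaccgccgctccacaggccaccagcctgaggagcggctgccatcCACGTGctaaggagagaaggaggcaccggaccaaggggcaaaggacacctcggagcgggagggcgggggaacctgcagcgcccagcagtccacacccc
Mlxipl second start: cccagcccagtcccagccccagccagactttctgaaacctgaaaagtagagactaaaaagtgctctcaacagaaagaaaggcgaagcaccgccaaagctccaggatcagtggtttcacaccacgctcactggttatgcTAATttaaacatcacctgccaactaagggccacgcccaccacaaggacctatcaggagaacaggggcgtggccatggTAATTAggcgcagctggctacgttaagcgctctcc

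The Slc2a2 window was 47.2% G and C with 2 CpG dinucleotides and held 1 TAAT match, at position -51 from the start. The Slc2a1 window was 66.4% G and C with 13 CpG and held no TAAT on either strand. The G6pc2 window was 50% G and C with 3 CpG and held 1 TAAT match. A second RefSeq start of G6pc2, whose window is not printed, had 46% G and C, 5 CpG and 3 TAAT matches. The first Mlxipl window was the most GC-rich of the 7 found, at 69.2% with 18 CpG, and held 1 CACGTG and no TAAT. Its second start, 17001 bp downstream, had 53.2% G and C, 8 CpG and 3 TAAT matches, of which 2 overlap in a TAATTA palindrome. The Mlxipl ISL1 value belongs to a 6000 bp window around the GRCm39 gene start, and no ISL1 window was listed for the second start. For comparison, the median of all 32851 windows of this length was 52.4% G and C and 6 CpG, with TAAT in 54.9% and CACGTG in 6.02% of them. The Trpm5 window held 1 TAAT match and is not printed, and Slc30a8 had no entry, so 5 of the 6 genes were matched.

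Listed regions were unevenly spread over the genes. H3K27ac was listed at 5 regions of Slc2a2, 2 of Slc2a1, 2 of Trpm5 and 1 of Slc30a8, and at none assigned to G6pc2 or Mlxipl. H3K27me3 was listed at 1 region of Slc2a2 and 2 of Mlxipl. Thus 4 of 6 genes had an H3K27ac region, against 44.4% of the genes in the ISL1 table, and 2 of 6 had an H3K27me3 region, against 19.2%. Within 1 kb of the start, H3K27ac was listed for Slc2a2 and Slc2a1 (2 of 6, background 36.8%) and H3K27me3 for Mlxipl (1 of 6, background 12.3%). Slc2a2 alone of the 6 had both marks (background 8.82%) and G6pc2 alone had neither (background 45.2%). The tables list regions from 50 counts upward, summed over 4 libraries, so a gene with none may still carry signal below that.

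**Figure D1:**
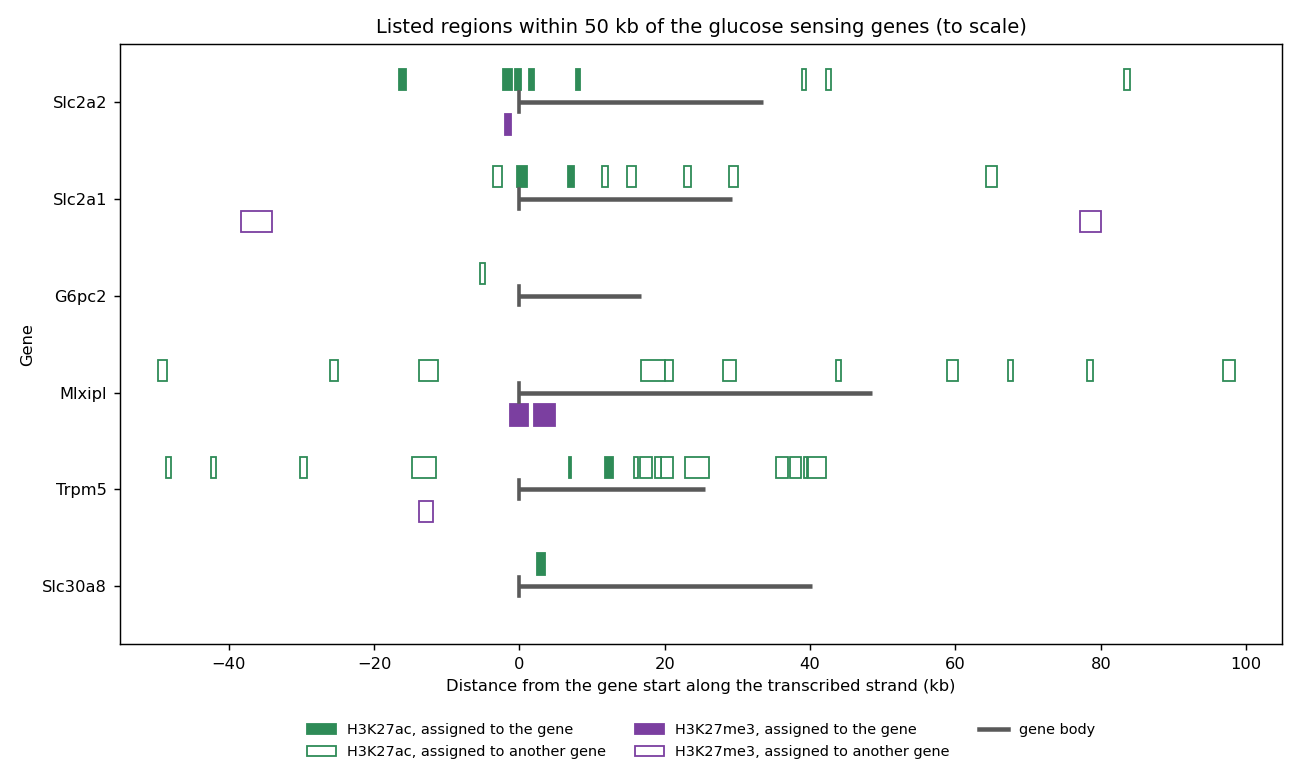
Regions listed within 50000 bp of each gene, by distance in kb from the gene start along the transcribed strand; filled boxes are assigned to the gene and open boxes to another gene, with H3K27ac above and H3K27me3 below the gene body. Slc2a2 has its regions around the start, Mlxipl has 2 H3K27me3 regions at its start and 4 open H3K27ac boxes further in, and G6pc2 has no box over its body.

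Assignment to the nearest gene left marked chromatin of these loci under other names. Of 44 H3K27ac regions within 50000 bp of the 6 genes, 10 were assigned to a member. All 4 H3K27ac regions inside the Mlxipl gene body were assigned to Gm43500, 4 of 6 touching the Slc2a1 body were assigned to Mir1957a, Gm12867 and Gm12868, and 5 of 7 touching the Trpm5 body were assigned to Tssc4. Around G6pc2 a single H3K27ac region was listed, 4707 bp away at the Spc25 promoter, and the nearest H3K27me3 region was 272112 bp away. Around Slc30a8 the only listed region of either mark was its own.

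Among the transporters, Slc2a2 (ENSMUSG00000027690, chromosome 3, 28752052 to 28785508, plus strand) carried 5 H3K27ac regions. The highest, not scaled by length, was a promoter region 982 bp upstream of the start (28749767 to 28751070). After scaling by TMM factors, this region had 36.5 and 29.5 CPM (counts scaled to the size of the library) in Isl1CKO and 41.7 and 48.2 CPM in Control, from 24, 42, 54 and 88 counts. Both Isl1CKO values were under both Control values. The means were 33.0 ± 4.95 and 45.0 ± 4.63 CPM (SD, n = 2 each), the log2 fold change of Isl1CKO over Control was -0.46 (SE 0.54), and edgeR's quasi-likelihood test gave an adjusted p of 0.935. In these sorted pools, fewer cells with the mark and less of it per cell cannot be told apart.

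The second promoter region of Slc2a2 covered the start itself (28751493 to 28752253) with weaker signal, 3.04 and 9.14 CPM in Isl1CKO and 8.49 and 16.4 CPM in Control. The higher Isl1CKO library was above the lower Control library, so the groups overlapped. The log2 fold change was -0.97 (SE 1.20, edgeR adjusted p 0.940). It remained below 0 in all 11 alternative fits, between -2.02 and -0.40 when 1 library was left out.

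The other 3 H3K27ac regions of Slc2a2 measured higher in Isl1CKO by less than 1 standard error. The region downstream of the start (28753442 to 28754104) had 9.13 and 26.0 CPM in Isl1CKO and 4.63 and 22.5 CPM in Control, a log2 fold change of 0.39 (SE 0.93, edgeR adjusted p 0.969). The distal region 15652 bp upstream (28735463 to 28736400) had 7.61 and 23.2 CPM in Isl1CKO and 19.3 and 6.58 CPM in Control, and its log2 fold change was 0.30 (SE 0.96, edgeR adjusted p 0.975). The exon region (28759801 to 28760348) had 4.56 and 15.5 CPM in Isl1CKO and 7.72 and 11.0 CPM in Control, with a log2 fold change of 0.14 (SE 1.16, edgeR adjusted p 0.991). In all 3 the replicates of a genotype differed more than the genotypes did, and the sign of each changed when some library was left out. The 5 regions of 1 gene are not replicates, and 3 of them measured above 0 and 2 below.

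Slc2a2 was also the only member where listed regions of both marks overlapped. The marks were measured in separate libraries of pooled endocrine cells, so whether they lie in the same cells was not tested. The H3K27me3 region of Slc2a2 (28750010 to 28750952) lay wholly inside the upstream H3K27ac promoter region, an overlap of 943 bp. An overlap of at least 1 bp with some H3K27me3 region was found at 6.86% of all H3K27ac regions. How many hold a whole H3K27me3 region was not counted. The Slc2a2 H3K27me3 region measured 16.2 and 1.70 CPM in Isl1CKO, from 38 and 4 counts. In Control it measured 15.9 and 19.4 CPM, from 18 and 33 counts. Isl1CKO replicate 2 was low, while Isl1CKO replicate 1 lay between the Control libraries. The log2 fold change was -0.97 (SE 1.09) with an edgeR adjusted p of 1.00, and leaving out Isl1CKO replicate 2 gave -0.12 and leaving out Isl1CKO replicate 1 gave -3.33. The authors' deposited table gives this region a log2 fold change of -1.49 and an adjusted p of 0.00229.

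**Figure D2:**
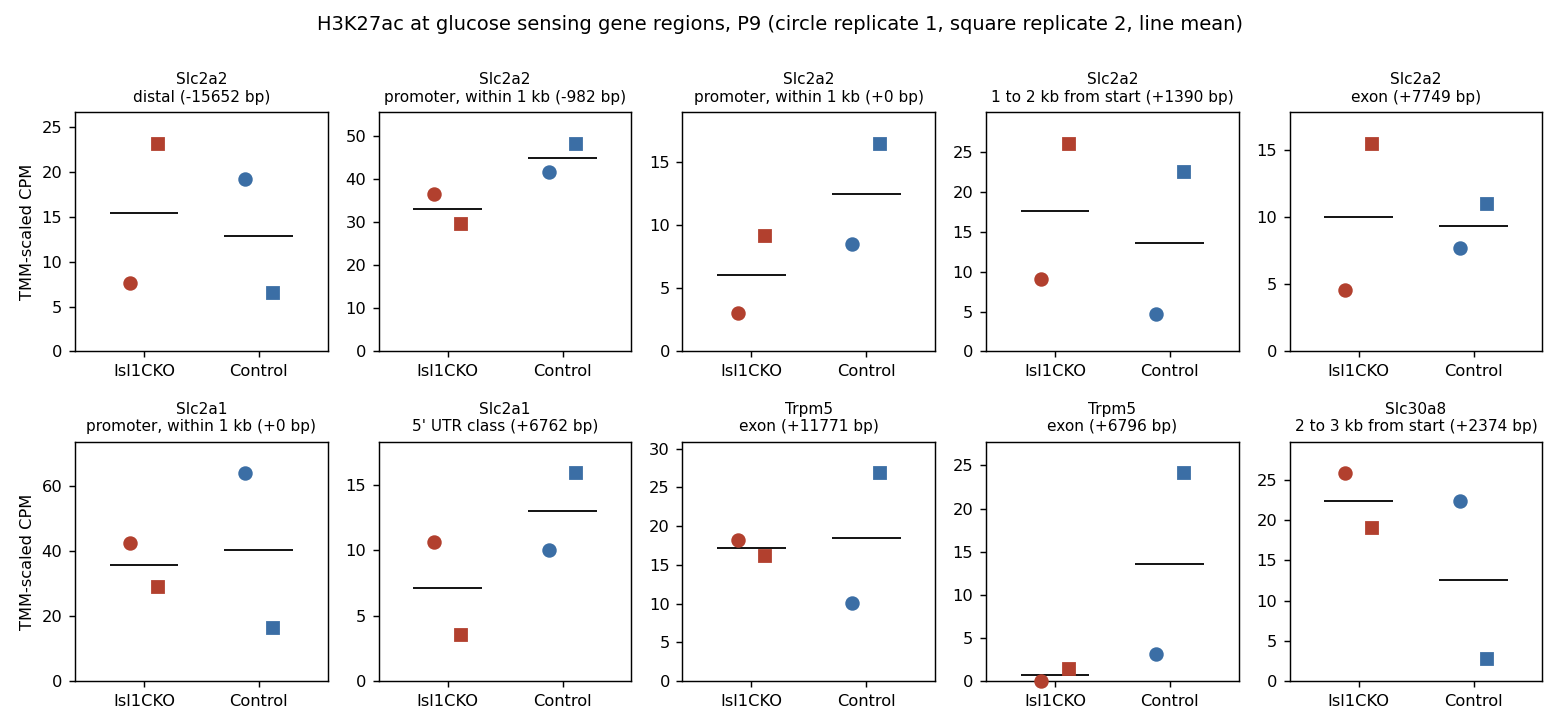
H3K27ac at the 10 regions of the glucose sensing genes, as TMM-scaled CPM in Isl1CKO and Control libraries at P9; circles are replicate 1, squares replicate 2, lines the mean of 2, and each panel has its own axis from 0. Both Isl1CKO points lie below both Control points at the Slc2a2 promoter 982 bp upstream and at the Trpm5 exon region at 6796 bp, and the points of the genotypes overlap in the other 8 panels.

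Slc2a1 (ENSMUSG00000028645, chromosome 4, 118965908 to 118995180, plus strand) had H3K27ac over its start (118965546 to 118966951), with 42.6 and 28.8 CPM in Isl1CKO and 64.1 and 16.4 CPM in Control. The Control libraries lay on either side of both Isl1CKO libraries. The means of 35.7 ± 9.75 CPM in Isl1CKO and 40.3 ± 33.7 CPM in Control (SD, n = 2 each) gave a log2 fold change of -0.18 (SE 0.65, edgeR adjusted p 0.979). Without Control replicate 1 it was 1.09, and without Control replicate 2 it was -0.88. A weaker region 6762 bp downstream, annotated as 5′ UTR (118972670 to 118973408), had 10.7 and 3.51 CPM in Isl1CKO and 10.0 and 15.9 CPM in Control, a log2 fold change of -0.93 (SE 1.19, edgeR adjusted p 0.941). Slc2a1 had no listed H3K27me3 region, and the nearest was 33985 bp from the gene.

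G6pc2 (ENSMUSG00000005232, chromosome 2, 69041417 to 69058185, plus strand) had no row in either histone table. Its nearest H3K27ac, at the promoter of Spc25, a kinetochore gene, had 15.2 and 14.1 CPM in Isl1CKO and 25.5 and 36.7 CPM in Control. Both Isl1CKO values were under both Control values there, and the log2 fold change was -1.09 (SE 0.69, edgeR adjusted p 0.895).

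Mlxipl (ENSMUSG00000005373, chromosome 5, 135118744 to 135167236, plus strand) was the member with H3K27me3 over its start. The promoter region (135117392 to 135119974, 2583 bp) had 35.5 and 90.1 CPM in Isl1CKO and 65.2 and 46.4 CPM in Control. Both Control libraries lay between the Isl1CKO libraries. The means were 62.8 ± 38.6 CPM in Isl1CKO and 55.8 ± 13.3 CPM in Control (SD, n = 2 each), and the log2 fold change was 0.17 (SE 0.52, edgeR adjusted p 1.00).

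The second H3K27me3 region of Mlxipl (135120741 to 135123680, 2940 bp) began 1997 bp downstream of the start. It had 32.9 and 35.3 CPM in Isl1CKO and 22.0 and 37.0 CPM in Control, and the groups overlapped. The log2 fold change was 0.20 (SE 0.60, edgeR adjusted p 1.00). Per kb of region, H3K27me3 in Control was 21.6 ± 5.15 CPM at the first Mlxipl region and 10.0 ± 3.60 CPM at the second (SD, n = 2), with 18.7 ± 2.64 CPM at the Slc2a2 region. The first Mlxipl region and the Slc2a2 region did not differ beyond their spread.

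Deeper in the Mlxipl gene body the mark was H3K27ac. The widest region assigned to Gm43500 (135135485 to 135138752) began 16741 bp and ended 20008 bp downstream of the Mlxipl start on GRCm39. It had 88.2 and 76.6 CPM in Isl1CKO and 90.3 and 98.7 CPM in Control. Both Isl1CKO values were under both Control values, by a log2 fold change of -0.20 (SE 0.36, edgeR adjusted p 0.958). The second RefSeq start of Mlxipl, whose upstream sequence is printed above, is 17001 bp downstream of the first on GRCm38.p6, a distance measured within its own build and not aligned to GRCm39. The other 3 regions inside the gene body had log2 fold changes of 0.66, 0.16 and -0.04, and in each of these the groups overlapped.

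**Figure D3:**
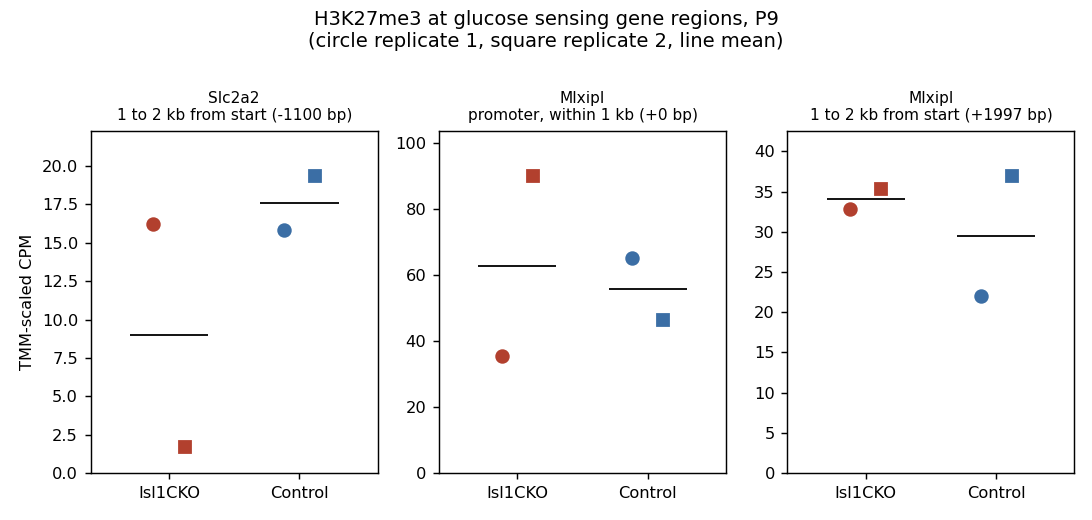
H3K27me3 at the 3 regions of Slc2a2 and Mlxipl, as TMM-scaled CPM in Isl1CKO and Control libraries at P9; circles are replicate 1, squares replicate 2, lines the mean of 2. The genotypes overlap in all 3 panels, and Isl1CKO replicate 2 is the lowest point at Slc2a2 (1.70 CPM) and the highest at the Mlxipl promoter (90.1 CPM).

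Trpm5 (ENSMUSG00000009246, chromosome 7, 142622890 to 142648379, minus strand) had H3K27ac at exon regions inside the gene and none within 3 kb of its start. The region 11771 bp into the gene (142635515 to 142636608) had 18.3 and 16.2 CPM in Isl1CKO and 10.0 and 26.9 CPM in Control. The Control libraries lay on either side of the Isl1CKO libraries, and the log2 fold change was -0.12 (SE 0.80, edgeR adjusted p 0.988).

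The second Trpm5 region (142641292 to 142641583, 292 bp) had 0 and 2 counts in Isl1CKO and 4 and 44 in Control. Both Isl1CKO libraries were below both Control libraries, but 84.3% of its scaled signal was in Control replicate 2. A concentration of over 70% in 1 library was found at 1220 of all H3K27ac regions (3.88%). In 1162 of them that library was Control replicate 2. The filter on low counts removed this region before the fit. Without that filter edgeR gave an unadjusted p of 0.101 and an adjusted p of 0.852, and DESeq2 gave an unadjusted p of 0.0673 and no adjusted p. The scaled ratio of its summed counts, Isl1CKO over Control, was 0.0625 with an exact 95% counting interval of 0.00736 to 0.238, and 0.311 without Control replicate 2. The count of 0 in Isl1CKO replicate 1 allowed up to 4.56 CPM. The authors' deposited table lists it with a log2 fold change of -3.39 and an adjusted p of 0.000245.

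Slc30a8 (ENSMUSG00000022315, chromosome 15, 52158949 to 52199194, plus strand) had 1 H3K27ac region, 2374 bp downstream of the start (52161323 to 52162420). It had 25.9 and 19.0 CPM in Isl1CKO, and 22.4 and 2.74 CPM in Control, where the low value is 5 counts. Control replicate 1 lay between the Isl1CKO libraries and Control replicate 2 far below them. The means of 22.4 ± 4.87 CPM in Isl1CKO and 12.6 ± 13.9 CPM in Control (SD, n = 2 each) gave a log2 fold change of 0.85 (SE 0.93, edgeR adjusted p 0.930), and it was -0.02 without Control replicate 2. The authors' deposited table gives a log2 fold change of 1.36 and an adjusted p of 0.0110.

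Set side by side per kb of region, H3K27ac in Isl1CKO was 25.3 ± 3.80 CPM at the Slc2a2 promoter, 25.4 ± 6.93 at the Slc2a1 promoter, 20.4 ± 4.44 at Slc30a8 and 15.7 ± 1.35 at the tested Trpm5 region. In Control it was 34.5 ± 3.55 at the Slc2a2 promoter, 28.6 ± 24.0 at Slc2a1, 11.4 ± 12.7 at Slc30a8 and 16.9 ± 10.9 at Trpm5 (SD, n = 2 throughout). The Slc2a2 promoter region given here, 982 bp upstream of the start, was higher than the tested Trpm5 region in every library of both genotypes. In Control the Slc2a1 values spanned those of that Slc2a2 region. The Slc2a2 region over the start had 8.00 ± 5.66 CPM per kb in Isl1CKO and 16.4 ± 7.39 in Control. The Slc2a2 region downstream of the start had 26.5 ± 18.0 in Isl1CKO and 20.4 ± 19.0 in Control. The short Trpm5 region that the filter removed had 2.41 ± 3.40 in Isl1CKO and 46.6 ± 50.9 in Control, so the order depends on the regions compared. Among all promoter regions, the Control level per kb stood at percentile 71.6 for the Slc2a2 region 982 bp upstream. It stood at 16.97 for the Slc2a2 region over the start and at 29.93 for the one downstream of the start. The Slc2a1 region over its start stood at 56.7. Slc30a8 stood at 5.48, from a Control mean that includes the library with 5 counts, Control replicate 2.

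Of the 9 H3K27ac regions that passed the filter, 0 had an edgeR adjusted p below 0.05, as did 0% of the 30036 regions tested. At an unadjusted p below 0.05 the members again numbered 0, against 5.83% of all regions, and DESeq2 called 0 of the 6 member regions to which it gave an adjusted p (0.109% of all). Both Isl1CKO values were under both Control values at 1 of 9 member regions, the Slc2a2 promoter, against 19.4% of all regions, and at 0 of 9 above, against 18.1%. For H3K27me3, 0 of 3 member regions passed the edgeR test, as did 0% of 19434, with 0 of 3 at an unadjusted p below 0.05 (4.34% of all) and 0 of 3 by DESeq2 (0.673%). None of the 3 had groups that did not overlap, against 35.4% of all regions. With 2 libraries against 2, an exact permutation test of a single region could not go below 0.333.

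The authors' deposited table rests on other library sizes and on a likelihood ratio score in place of the quasi-likelihood test. It passed 2 of the 10 H3K27ac member regions at an adjusted p below 0.05. They were Slc30a8, higher in Isl1CKO (27.8% of all regions), and the short Trpm5 region, lower (9.25% of all). For H3K27me3 the authors' deposited table passed 1 of 3, Slc2a2, lower in Isl1CKO (29.6% of all). Their fold changes could be rebuilt from the counts with H3K27ac library sizes, relative to Control replicate 1, of 0.271 and 1.22 for Isl1CKO and 1.93 for Control replicate 2. The count totals relative to the same library were 0.521 and 1.10 for Isl1CKO and 1.39 for Control replicate 2. In the edgeR fit these sizes moved the median log2 fold change of all H3K27ac regions to 0.61, against -0.03 with TMM, and that of all H3K27me3 regions to -0.51, against 0.05. Member H3K27ac regions were then 7 above 0 and 2 below (75.7% of all regions above), and the Slc2a2 promoter measured 0.26. With TMM the member regions were 4 above and 5 below (48.6% of all above). Over all regions, the edgeR fit with the implied sizes called 3 for H3K27ac and 0 for H3K27me3. The parts of the likelihood ratio score and of the dispersion (0.04 in the rebuilt fold changes) in the authors' calls were not tested.

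**Figure D4:**
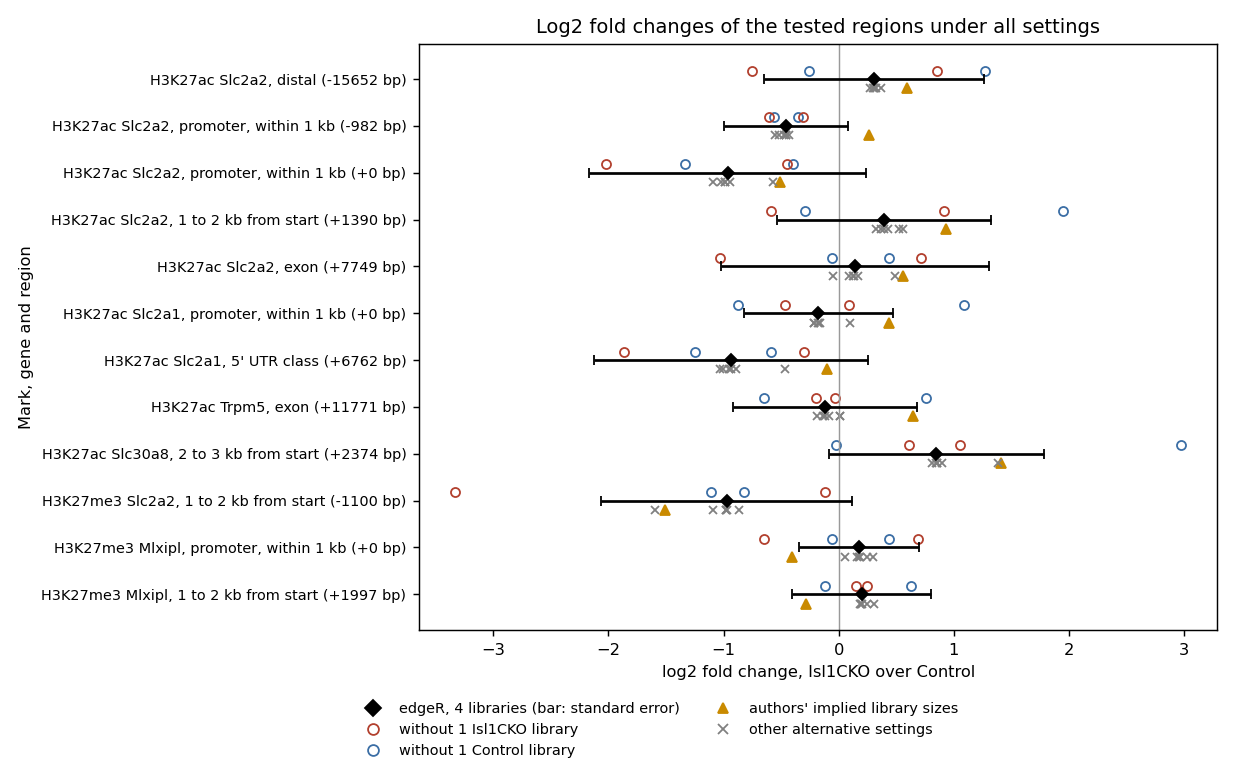
Log2 fold changes of Isl1CKO over Control for the 12 tested regions of the glucose sensing genes. Diamonds are the 4-library edgeR fit with its standard error, open circles leave out 1 library, triangles use the authors' implied library sizes and crosses the other alternatives; 9 of the 12 regions have a point on each side of 0, and the Slc2a2 promoter at the start, the Slc2a1 5′ UTR region and the Slc2a2 H3K27me3 region do not.

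ISL1 binding was recorded as a whole-number value per promoter window of about 3 kb on each side of the start, in a unit that is not stated. At E14.5 the value was 2 at Slc2a1 and Mlxipl, 1 at Slc2a2, G6pc2 and Trpm5, and 0 at Slc30a8. A value of at least 1 was thus found at 5 of 6 genes, against 37.7% of all windows, and of at least 2 at 2 of 6, against 18.3%. No member reached 5, which 2.06% of windows did, and the highest value in the table was 133. At P9 all 6 were at 0, as were most windows, since 8.86% had a value of at least 1. The G6pc2 window was wider than the others, 10879 bp against 6000 bp. The stages were not compared, since depth and scaling are not stated and each has a single column.

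**Figure D5:**
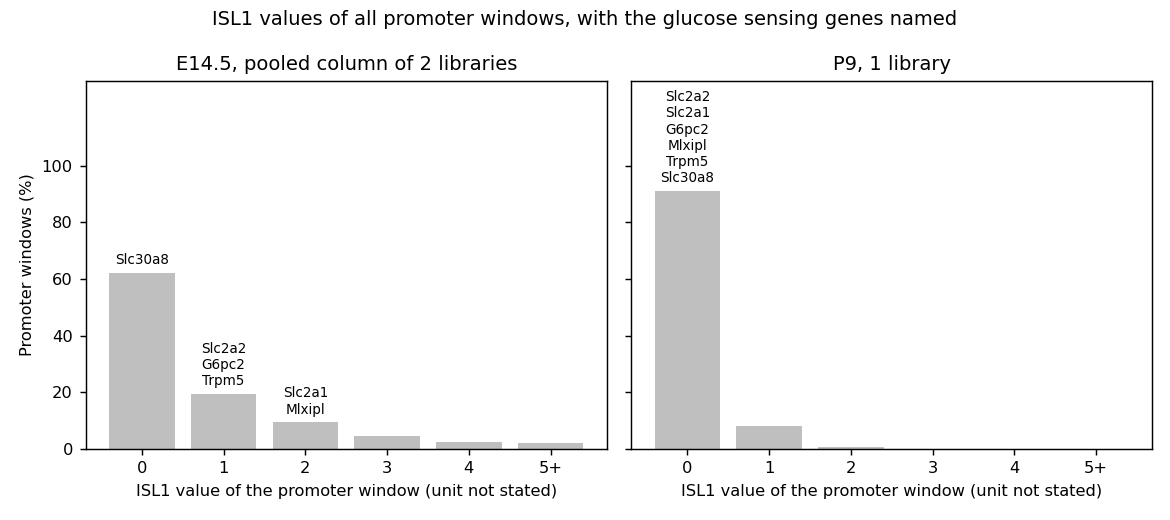
Share of the 22332 promoter windows at each ISL1 value at E14.5 and at P9, with values of 5 and above in 1 bar and the glucose sensing genes named above the bar of their value. At E14.5, 5 of the 6 genes stand above 0 and none above 2, and at P9 all 6 stand at 0.

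The ISL1 windows differed in the marks that lay in them. The Slc2a2 window (28749053 to 28755052) held 3 of the gene's H3K27ac regions and its H3K27me3 region. The Slc2a1 window (118962909 to 118968908) held the H3K27ac promoter region, and the Mlxipl window (135115745 to 135121744), with the same E14.5 value of 2, held no H3K27ac and 1 whole H3K27me3 region with 1004 bp of the other. The G6pc2 window held the Spc25 H3K27ac region, and the Trpm5 window held no listed region of either mark.

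Genes that work beside the members were described from 6 lists, with 1 region a gene. None of their regions passed the edgeR test fitted to all 4 libraries, and the values below stand beside a median H3K27ac log2 fold change of 0.02 over 15900 genes (8147 above 0, 7753 below) and of -0.08 for H3K27me3 over 7875 genes (3514 above, 4361 below). At an unadjusted p below 0.05 there were 466 higher and 491 lower for H3K27ac over the 15900 genes. With the authors' implied library sizes these splits were 12727 above and 3173 below for H3K27ac and 1608 above and 6267 below for H3K27me3.

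Of the 14 glucose uptake and phosphorylation genes, 7 had a tested H3K27ac region, 5 above 0 and 2 below, with a median log2 fold change of 0.06 and 0 at an unadjusted p below 0.05. The split was 7 above and 0 below with the implied sizes, and 3 above and 4 below with library totals. Slc2a4, the insulin-regulated transporter GLUT4, had 20.3 ± 5.06 CPM in Isl1CKO and 8.70 ± 8.43 in Control (SD, n = 2 each), a log2 fold change of 1.25 (SE 0.99) that ran between 0.48 and 2.86 when 1 library was left out. Hk3, a hexokinase, measured 0.80 (SE 0.55), with both Isl1CKO libraries above both Control libraries.

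Glycolysis genes had 22 of 26 tested, 12 above and 10 below 0, with a median of 0.16 and 2 higher at an unadjusted p below 0.05. The split was 19 above and 3 below with the implied sizes, and 11 and 11 with loess. Pfkfb3, whose enzyme makes the activator of phosphofructokinase, had 143 ± 23.5 CPM in Isl1CKO and 70.2 ± 7.76 in Control, a log2 fold change of 1.03 (SE 0.34, edgeR adjusted p 0.846). Pdk4, which inhibits pyruvate dehydrogenase, measured 1.74 (SE 0.67). Both stayed above 0 under every scaling and without each library, but were named for their small unadjusted p in this same edgeR fit. Gapdh, a glycolytic dehydrogenase, measured the other way, with 56.0 ± 15.5 CPM in Isl1CKO and 91.7 ± 10.7 in Control, a log2 fold change of -0.73 (SE 0.41, edgeR adjusted p 0.873) that was 0.0485 with the implied sizes.

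Of the 14 partners and targets of ChREBP, 12 were tested for H3K27ac, 8 above and 4 below 0, with a median of 0.23, and the split was 10 and 2 with the implied sizes and 6 and 6 with loess. Fasn, the fatty acid synthase gene, had 275 ± 26.8 CPM in Isl1CKO and 162 ± 24.7 in Control, a log2 fold change of 0.76 (SE 0.27, edgeR adjusted p 0.846). Txnip, a glucose-induced target, had 29.3 ± 22.1 CPM in Isl1CKO and 66.9 ± 19.3 in Control, a log2 fold change of -1.13 (SE 0.56, edgeR adjusted p 0.865) that ran between -2.29 and -0.58 when 1 library was left out. Klf10, a zinc finger factor gene, measured 0.34 (SE 0.28) and its groups overlapped. The Txnip ISL1 value was 3 at E14.5 and 1 at P9.

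Zinc transporters and zinc-binding genes had 13 of 19 tested, 4 above and 9 below 0, with a median of -0.10 and 0 at an unadjusted p below 0.05. Mt1, a metallothionein, measured -0.52 (SE 0.45), and Slc39a8, a zinc importer, -1.09 (SE 1.00), between -2.77 and -0.24 when 1 library was left out. Slc39a1, another zinc importer, measured 0.41 (SE 0.46), between -0.62 and 1.04 when 1 library was left out. With the implied sizes 12 of the 13 zinc genes measured above 0.

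TRP channels had 8 of 15 genes tested for H3K27ac, 2 above and 6 below 0, with a median of -0.59, and 8 for H3K27me3, 1 above and 7 below, with a median of -0.39. With the implied sizes the H3K27ac split was 5 above and 3 below. Trpc5 had 0 counts in both Isl1CKO libraries and 12 and 41 in Control. Set at 3 counts in all in Isl1CKO and scaled by TMM, Trpc5 was 11.8-fold lower, which is no bound since Control spread is left out. Its edgeR adjusted p was 0.846, and over scalings and left-out libraries it ran from 0.0324, without Control replicate 1, to 1.00. Trpm4, the closest relative of Trpm5, had 46.4 ± 1.02 CPM of H3K27ac in Isl1CKO and 66.5 ± 4.16 in Control, a log2 fold change of -0.52 (SE 0.45, edgeR adjusted p 0.917) that was 0.12 with the implied sizes. Trpv4 measured -1.59 (SE 0.98) with overlapping groups, between -3.93 and -0.42 when 1 library was left out.

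Genes that trigger insulin secretion had 13 of 14 tested for H3K27ac, 6 above and 7 below 0, with a median of -0.04, and at an unadjusted p below 0.05 there were 1 higher and 3 lower. The split was 10 above and 3 below with the implied sizes. Both subunits of the ATP-sensitive potassium channel were among the lower. Abcc8 had 25.9 and 28.1 CPM in Isl1CKO and 96.5 and 86.6 CPM in Control, a log2 fold change of -1.75 (SE 0.45, edgeR adjusted p 0.838). Kcnj11 had 93.0 ± 4.60 CPM in Isl1CKO and 171 ± 24.3 in Control, a log2 fold change of -0.88 (SE 0.32, edgeR adjusted p 0.846). Glp1r, the GLP-1 receptor, measured -1.22 (SE 0.44, edgeR adjusted p 0.846, ranging over scalings and left-out libraries to 1.00 and down to 0.0415 without Control replicate 1). With the implied sizes the log2 fold changes were -1.15, -0.25 and -0.34 for Abcc8, Kcnj11 and Glp1r. All 3 stayed below 0 under every scaling and without each library, but were named for their small unadjusted p in this same edgeR fit.

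H3K27me3 was tested at fewer genes of the other 5 lists: 7 for glucose uptake (3 above and 4 below 0, median -0.23), 1 for glycolysis (-1.45), 2 for ChREBP partners and targets (1 above and 1 below), 6 for zinc (2 above and 4 below, median -0.16) and 3 for insulin secretion (3 above, median 0.33). With the implied sizes the glucose uptake genes were 0 above and 7 below, and the insulin secretion genes 1 above and 2 below. None had an unadjusted p below 0.05 in the edgeR test. At Kcnj11, H3K27me3 was 60.7 and 106 CPM in Isl1CKO and 151.6 and 1.76 CPM in Control, and at Abcc8 it was 30.8 and 53.1 CPM in Isl1CKO and 44.1 and 0.587 CPM in Control. At both genes Control replicate 2 was low and the groups overlapped.

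Among these list genes, the H3K27ac profiles nearest to each member over the 4 libraries were found by the root mean square difference of centred log2(CPM + 1), out of 75 candidates. For the Slc2a2 promoter they were Mt1 (0.115) and Cacna1a (0.126), against a median of 0.476 over the candidates. For Slc2a1 they were Mt2 (0.271) and Gipr (0.316), for Trpm5 Pklr (0.252) and Trpm3 (0.293), and for Slc30a8 Slc2a4 (0.390) and Pkm (0.403). With 4 libraries this is a description of the profiles only, and the nearest genes share the low Control replicate 2 value in the case of Slc30a8, where Pkm had 76.1 and 55.5 CPM in Isl1CKO and 50.2 and 4.39 CPM in Control.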

How the data were processed

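H3K27ac and H3K27me3 CUT&Tag (2 Isl1CKO and 2 Control libraries per mark) and ISL1 CUT&Tag of Control cells were analysed from the deposited tables, with groups from the sample titles. Per the submitters' processing notes, the build was GRCm39 and the tools included ChIPseeker 1.38.0, MACS2 2.2.6, Picard 2.27.4, Bowtie2 2.3.5.1 and edgeR 4.0.16. The authors deposited raw counts per region and library, with their own log2 fold change (Isl1CKO over Control), log2 abundance, likelihood ratio score and p-value per region; the last are named as the authors' wherever printed. The deposited ISL1 table holds other whole numbers per window, of unstated unit. Chromosome labels of the histone tables were indexes of alphabetical order and were relabelled, after which 100% matched the ISL1 table. Repeated regions (108 H3K27ac, 90 H3K27me3) were counted once, and 0 per-sample columns were left unused.

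Counts were fitted with edgeR 4.0.16 (R 4.3.3, limma 3.58.1): filterByExpr, TMM, quasi-likelihood test by genotype, Benjamini-Hochberg over all 30036 or 19434 tested regions, called below 0.05. CPM are TMM-scaled. The fit was run on simulated data with large changes and less spread than these libraries have. That run does not show how small a change could be detected here. Alternatives were other scalings (RLE, totals, loess, the authors' implied sizes), no filter, DESeq2 1.42.0, replicate number as a block, and leaving out each library. The implied sizes, with a dispersion of 0.04, rebuilt 3000 H3K27ac fold changes with a root mean square residual of 0.0016 log2. The edgeR fit with these sizes estimated its own dispersion and did not use the 0.04. P-values measure the spread between pools. Intervals and floors (3 counts) cover counting error only. Members, lists and the rule for named genes (all members; per list and mark up to 3 genes of smallest unadjusted p; the 2 nearest profiles per member) were chosen with earlier results of these data known. A gene of the glucose uptake list that this rule names is not reported here.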

Additional observations from a re-analysis of the deposited data

How the results depend on the processing

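Over 12 tested regions and 11 alternatives, 110 of 132 values kept the sign of the log2 fold change and 22 did not, in 9 regions; none passed an adjusted p of 0.05 (smallest 0.158). With the authors' implied library sizes the sign turned at the Slc2a2 promoter (0.26), Slc2a1 promoter (0.44), Trpm5 exon (0.65) and, for H3K27me3, the Mlxipl promoter (-0.41) and downstream region (-0.29); the member medians became 0.56 against -0.12 (H3K27ac) and -0.41 against 0.17 (H3K27me3, -0.40 with 1 region a gene). With loess the Trpm5 exon was 0.01. Replicate numbers are not stated to pair the samples. Same-number deviations correlated at 0.0647 (H3K27ac) and -0.0173 (H3K27me3), which with 2 libraries per genotype cannot show whether pools were paired. With the replicate block 0 regions were called for either mark. The sign turned there at the Slc2a2 exon (-0.0496), Slc2a1 promoter (0.10) and Trpm5 exon (0.0086). Leaving out 1 library gave, for H3K27ac, -0.76 to 1.27 (Slc2a2 distal), -0.61 to -0.31 (promoter), -2.02 to -0.40 (start), -0.59 to 1.95 (downstream) and -1.03 to 0.72 (exon), -0.88 to 1.09 and -1.86 to -0.30 (Slc2a1 promoter and 5′ UTR), -0.65 to 0.76 (Trpm5 exon) and -0.0239 to 2.97 (Slc30a8). For H3K27me3 it gave -3.33 to -0.12 (Slc2a2), -0.65 to 0.69 and -0.12 to 0.63 (Mlxipl promoter and downstream). The ratio of the short Trpm5 region was 0 to 0.311. H3K27ac calls over all regions were 3 with the implied sizes, 29 with DESeq2 and 0 to 900 without 1 library (900 without Control replicate 1, 15 without Control replicate 2), against 0; H3K27me3 calls were 130 with DESeq2, against 0. Members with an ISL1 value at E14.5 were 0 at a minimum of 5 and 2 at a minimum of 2, against 5. The causes were not tested. Counts of 0 to 5 in a library limit the precision at some regions, in the deepest H3K27ac library too.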

Other observations

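Around Slc2a2, an intron region of Gm6505 that lies 5474 bp past the end of the gene (chromosome 3, 28790982 to 28791509) had 1 and 5 counts in Isl1CKO and 17 and 35 in Control, which is 1.52 and 3.51 CPM in Isl1CKO and 13.1 and 19.2 CPM in Control. Its log2 fold change of -2.55 (SE 1.28) was larger in size than that of any region assigned to Slc2a2, and it did not pass the edgeR test (adjusted p 0.865). The next Gm6505 intron region (28794242 to 28794945) lay the other way, with 24.3 and 16.9 CPM in Isl1CKO and 8.49 and 15.4 CPM in Control, a log2 fold change of 0.76 (SE 0.84).

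Inside the Trpm5 gene body, on the opposite side from its start, 3 of the 5 regions assigned to Tssc4 had both Isl1CKO libraries below both Control libraries, an arrangement that 19.4% of all tested H3K27ac regions had. Their log2 fold changes were -0.91 (SE 0.65), -1.91 (SE 0.95) and -0.87 (SE 0.55), while the Tssc4 promoter region measured 0.06 (SE 0.33). On the other flank of Trpm5, the promoter region of Gm38321, 29266 bp away, had 44.1 and 32.3 CPM in Isl1CKO and 12.4 and 9.87 CPM in Control, a log2 fold change of 1.77 (SE 0.69). These regions were picked out after their values were seen, and none passed the edgeR test with adjustment over all regions.

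Among H3K27me3 regions of the zinc list, an exon region of Slc30a1, the zinc exporter of the plasma membrane, had 72 and 30 counts in Isl1CKO and 8 and 0 in Control, a log2 fold change of 2.70 (SE 1.37) that did not pass the edgeR test (adjusted p 1.00). It was 1.96 with the implied sizes and between 1.62 and 8.54 when 1 library was left out, and with 0 counts in a Control library the fitted value is no bound.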
